A study of Mus musculus with 28 samples.

Results

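The midbrain of tumour-bearing mice was compared with that of PBS-injected mice 192 h after the injection, on 7 of the 28 arrays of the series. The arrays were those labelled midbrain at 192 h and numbered 309 or above. They came from 4 biological replicates, and array 272, the only other array of that time, was left out because the brightness of its spots did not follow its gene annotation (Spearman correlation 0.118 with the other arrays, across probes). Tumour-bearing animals were male BALB/c mice that received, at 8 weeks of age, a subcutaneous injection of 300 µl PBS holding 1000000 cells of CT-26.WT, a colon carcinoma line of the mouse. The controls were male BALB/c mice of the same age that received 300 µl PBS alone. The labels leave unsaid how many animals make up a biological replicate, and p-values measure the spread between these samples. RNA of the tumour-bearing and of the PBS-injected midbrain shared each array, labelled with the dyes Cy3 and Cy5 in either order. Replicates 3 and 4 used total RNA and had 1 array in each dye orientation. Replicates 1 and 2 used polyA RNA and had a single orientation, with the tumour RNA in Cy5 for replicate 1 (array 313) and in Cy3 for replicate 2 (arrays 309 and 317).

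The midbrain holds the dopamine neurons of the substantia nigra and ventral tegmental area, the serotonin neurons of the dorsal raphe, and the periaqueductal grey, which takes part in defence, pain and autonomic control. Dopamine neurons make their transmitter through tyrosine hydroxylase (Th) and aromatic amino acid decarboxylase (Ddc). A tumour outside the brain can reach it through circulating cytokines, glucocorticoids and visceral nerves, and interferon, NF-kB and glucocorticoid target genes are common readouts of such signals.

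Of 9008 probes (8726 named genes), 7723 probes for 7508 genes had a value in at least 3 of the 4 replicates. Of these, 1922 belonged to the dimmest 33.3% of probes, and 104 others had too few values at 18 h, the time fitted together with 192 h. The test ran on the remaining 5697 probes for 5551 genes. Among them 4927 had a value in all 4 replicates and 3099 on all 7 arrays. On the 7 arrays, between 66.5% and 91.1% of spots gave a signal above background in both channels. Th, Ddc, the GABA-synthesising enzyme gene Gad2 and the microglial gene Aif1 had a signal on 7 of 7 arrays, and Gad1 on 6. Slc6a3, Slc18a2, Mbp, Gfap, Cldn5 and Ttr were not analysed here. Values are log2 ratios of tumour over PBS. The file headers name the channels A and B and not the dyes. Channel B was taken as Cy5 because the ratios then run the same way as the authors' processed values on every array (r = 0.658 to 0.875 on the 7 arrays), so the direction is likely and not settled.

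The sign of a ratio went with the dye of the tumour RNA more than with the tumour. The 9 pairs of arrays with the same dye orientation correlated at a mean Pearson r of 0.288 across probes, and 9 of 9 lay above 0. For the 12 pairs of opposite orientation the mean was -0.346, with 0 of 12 above 0. This held for both arrays of replicate 3, at -0.109, and for both arrays of replicate 4, at -0.572. Replicates 1 and 2, which had opposite orientations, correlated at -0.628 and shared the sign at 31.2% of 5361 probes. These correlations are descriptions across probes, which share their slides and dyes, and carry no p-value.

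**Figure D1:**
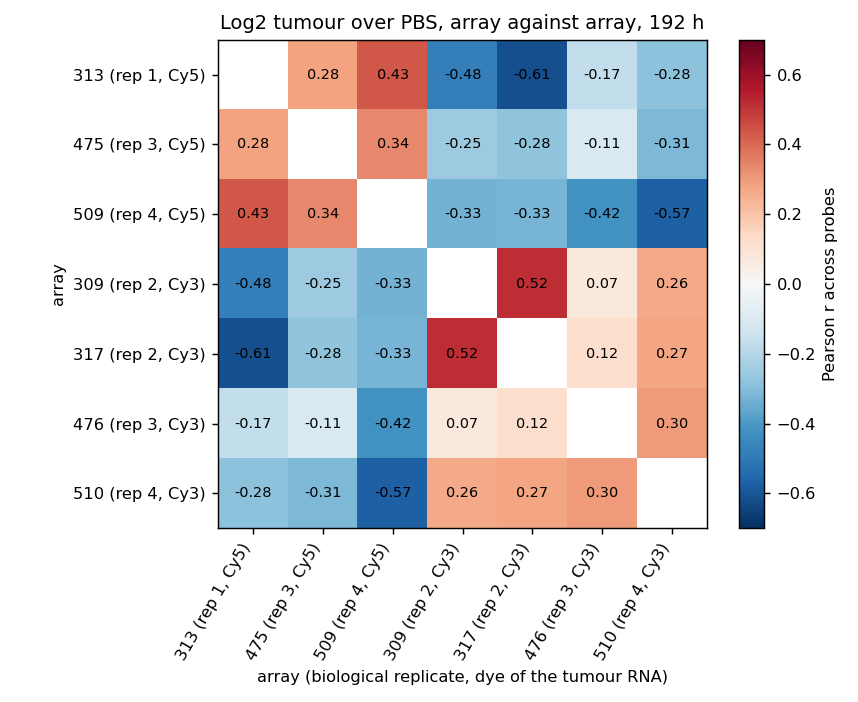
Pearson r across probes of the log2 ratio of tumour over PBS for each pair of the 7 arrays, with arrays named by number, biological replicate and dye of the tumour RNA. The block of 3 arrays with the tumour RNA in Cy5 and the block of 4 with it in Cy3 are above 0, and all 12 pairs between them are below 0.

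Replicates 3 and 4 allow the tumour and the dye to be separated probe by probe, since each was hybridised both ways. The part of the ratio that stays when the dyes are exchanged is the tumour part, and the part that turns with them is the dye part. Across 3796 probes the dye parts of replicates 3 and 4 correlated at 0.481, and the tumour parts at -0.146. The tumour parts had the same sign at 45.3% of the probes. In replicate 4 the SD of the dye part was 0.398 and that of the tumour part 0.221. In replicate 3 they were 0.186 and 0.167.

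**Figure D2:**
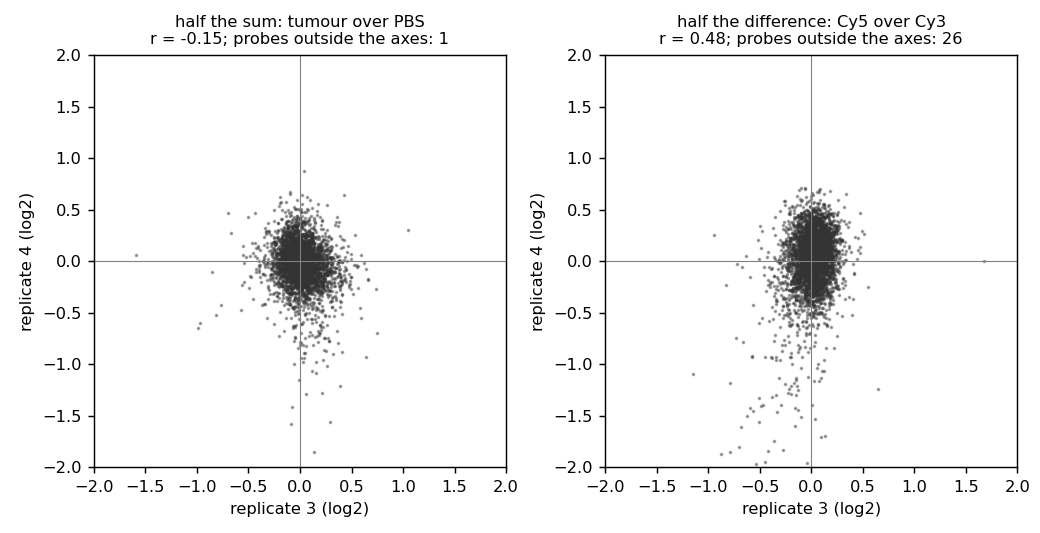
Tumour part (left) and dye part (right) of the log2 ratio in replicate 3 (x axis) and replicate 4 (y axis), 1 point per probe, with the axes ending at 2 in each direction and 1 and 26 probes outside them. The tumour parts form a round cloud with r = -0.15, and the dye parts trail together towards negative values with r = 0.48.

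Single genes show the same. Of the 3099 probes with a value on all 7 arrays, 247 (7.97%) had one dye brighter throughout, against 22 (0.71%) with one sign of tumour over PBS throughout. The genes furthest to the Cy3 side, chosen for that after their values were seen, were Rbm33, Nat8 and Chst13. Rbm33, an RNA-binding motif gene, had log2 ratios of Cy5 over Cy3 from -4.35 to -1.92 on the 7 arrays, with a mean of -3.15. Its fitted ratio of tumour over PBS was 0.03 (SE 0.27, n = 4). Chst13, a chondroitin sulfotransferase gene, had -4.74 to -1.54 as Cy5 over Cy3 and -0.10 (SE 0.29, n = 4) as tumour over PBS. Turned to tumour over PBS, Rbm33 and Chst13 lay below 0 on the 3 arrays with the tumour RNA in Cy5 and above 0 on the 4 with it in Cy3.

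At 192 h no probe passed the test. Limma's moderated test, fitted with the means of both times and the dye, called 0 of 5697 probes (0%), since the lowest adjusted p was 1.00 against a threshold of 0.05. An unadjusted p under 0.05 was reached by 75 probes, or 1.32%, with 34 higher and 41 lower in tumour-bearing mice. Of all tested probes, 51.3% had a fitted ratio above 0. The central 95% of the fitted ratios lay between -0.25 and 0.23, and the median SE was 0.13. The 95% confidence interval of a single probe, not adjusted for the number of probes, reached a median of 0.28 to each side. Changes of that size could be missed, and larger ones too, since a call rests on the adjusted p. Ncmap, for example, had a fitted ratio of 0.56 and was not called. The count at an unadjusted p under 0.05 was 138 without replicate 2 and 117 without replicate 3, both with 0 called. With median centring in place of loess it was 129, of which 91 were higher and 38 lower, so the split between higher and lower depends on the centring.

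Consistency of sign was also rare. Of the 4927 probes with 4 values, 379 (7.69%) had one sign in all 4 replicates, 169 above 0 and 210 below 0. The genes below were taken from them by the size of the moderated statistic, 12 in each direction. Each has an adjusted p of 1.00, so the values describe these replicates and are not calls. With 4 values the fitted ratio equals the mean of the replicates.

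Among the genes above 0, Ncmap, which encodes a protein of noncompact myelin, had log2 ratios of 0.25, 1.21, 0.37 and 0.42 in replicates 1 to 4. Its fitted ratio was 0.56 (SE 0.11, n = 4), with replicate 2 far above the other replicates, and without replicate 2 it was 0.40. Idh2, the mitochondrial NADP-dependent isocitrate dehydrogenase, had 0.38, 0.74, 0.001 and 0.50, with a fitted ratio of 0.40 (SE 0.13, n = 4). Replicate 3 of Idh2 lay at 0, and its pair of arrays disagreed in sign (-0.11 and 0.11).

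Atf3, a transcription factor gene induced by many cell stresses, had 0.50, 0.49, 0.20 and 0.14 (fitted 0.33, SE 0.12, n = 4), and 6 of 7 arrays lay above 0. Ndufb4, a subunit of respiratory complex I, had 0.24, 0.68, 0.03 and 0.28, and its other probe had a fitted ratio of 0.01. The nucleotide sugar transporter gene Slc35b4 was the most even of the 12, with 0.21, 0.22, 0.31 and 0.47, but it had a value on only 4 arrays. Fnbp4, encoding a formin-binding protein, had 0.89, 0.04, 0.43 and 0.65, and 2 of its 7 arrays lay below 0. The phosphatase inhibitor-like gene Ppp1r14bl had 0.95, 0.57, 0.01 and 0.13, a fitted ratio of 0.42 that was 0.17 without replicate 1. The fitted ratios of the others were 0.39 for 4930524B15Rik, 0.32 for Mpv17l, 0.31 for the cGMP-dependent kinase gene Prkg2, 0.29 for the GTPase-activating protein gene Arhgap45 and 0.23 for the splicing kinase gene Srpk2. Another probe of Srpk2 had -0.11.

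Among the genes below 0, Nrarp, a target and feedback inhibitor of Notch signalling, had -0.08, -0.80, -0.17 and -0.38 in replicates 1 to 4. Its fitted ratio was -0.36 (SE 0.12, n = 4). Replicate 2 of Nrarp rested on array 309, and its arrays of replicate 4 disagreed in sign (-0.83 and 0.07). Cish, a cytokine-induced inhibitor of JAK-STAT signalling, had -0.09, -0.68, -0.29 and -0.16 (fitted -0.30, SE 0.12, n = 4), and 0 of its 6 arrays lay above 0. Ifngr2, the second chain of the interferon gamma receptor, had -0.999, -0.10, -0.07 and -0.35 (fitted -0.38, SE 0.15, n = 4). Replicate 1 was lowest for Ifngr2, and without it the fitted ratio was -0.14.

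Slc3a1, a subunit of a dibasic amino acid transporter, had a fitted ratio of -0.32, the ESCRT-III gene Chmp5 -0.31 and the ubiquitin ligase gene Rffl -0.28. For Slc3a1, Chmp5 and Rffl replicate 2 lay close to 0, at -0.005, -0.002 and -0.01. Slc3a1 had its other values only on arrays 313, 475 and 509, all with the tumour RNA in Cy5. Its value in replicate 2 came from array 309, with the tumour RNA in Cy3. For Slc3a1 the tumour and the dye therefore cannot be told apart. Peg10, a retrotransposon-derived imprinted gene, had -0.32, and the late endosomal GTPase gene Rab7 had -0.32, which was -0.18 without replicate 4. None of the 33 genes chosen for one sign, in all 4 replicates or on all 7 arrays, was called. For 18 of them the fitted ratio moved by over 1.5 times in at least 1 of the 4 fits without a replicate. Where replicate 1 or 2 was left out, such a move mixes the replicate with the dye. Among the 18, Atf3 was at 0.17 without replicate 1 or without replicate 2. Idh2 was at 0.23 and Chmp5 at -0.47 without replicate 2. Crbn, the substrate receptor cereblon, had -0.24, 2610507B11Rik had -0.23, and the lipase maturation factor gene Lmf1 had -0.21. For 2610507B11Rik the arrays of replicate 4 disagreed in sign (0.36 and -0.56).

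**Figure D3:**
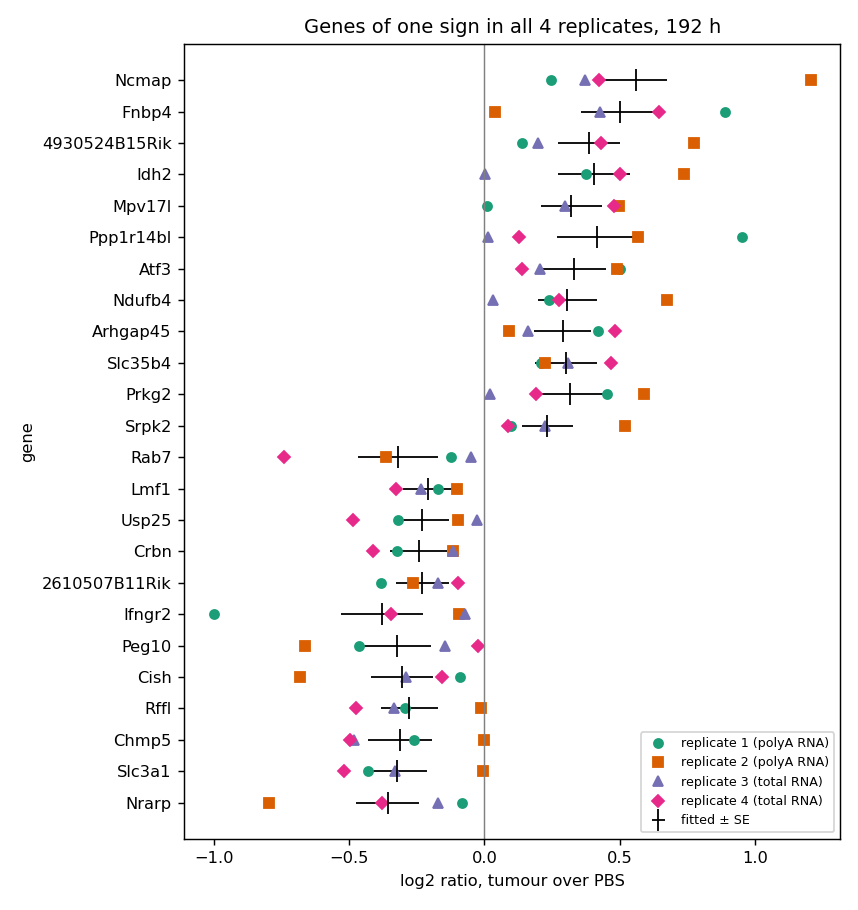
Log2 ratio of tumour over PBS in each of the 4 biological replicates (points) for the 24 genes of one sign in all 4 replicates with the highest and lowest moderated statistics, with the fitted ratio and its SE in black. Replicate 2 of Ncmap (1.21) and replicate 1 of Ifngr2 (-0.999) lie furthest out.

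A stricter description asks for one sign on all 7 arrays, in either dye orientation. Of 3099 probes with 7 values 22 met it (0.71%), 6 above 0 and 16 below 0, against the 247 that followed the dye. The 10 with the largest moderated statistic had fitted ratios between -0.26 and 0.27. Their adjusted p was 1.00.

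Usp25, a deubiquitinating enzyme gene, belonged to both groups of genes. It had -0.32 on array 313, -0.11 and -0.08 on the pair of arrays of replicate 2, -0.04 and -0.01 on those of replicate 3, and -0.61 and -0.36 on those of replicate 4. Its fitted ratio was -0.23 (SE 0.10, n = 4). Replicate 4 was the lowest and replicate 3 the closest to 0.

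Chst2, which encodes a carbohydrate sulfotransferase, was the most even of the 10. It had -0.24 in replicate 1, -0.25 in replicate 2, -0.17 in replicate 3 and -0.16 in replicate 4, a fitted ratio of -0.21 (SE 0.10, n = 4). Its 7 arrays spanned only -0.27 to -0.12. Without replicate 2, where the dye term enters, the fitted ratio of Chst2 was -0.12, closer to 0 than each of its remaining replicates. Stip1, a co-chaperone that links Hsp70 with Hsp90, had -0.23, -0.20, -0.16 and -0.33, with a fitted ratio of -0.23 (SE 0.14, n = 4). The fitted ratio of Stip1 was -0.10 without replicate 1 and -0.37 without replicate 2. Both lie outside the range of its remaining replicates, in fits where the dye term enters. Vsnl1, a neuronal calcium sensor gene, had a fitted ratio of -0.21, the homeobox gene Dlx3 -0.26, the cullin adaptor gene Klhl13 -0.15 and the mechanically gated channel gene Piezo2 -0.16. The ratios of the genes above 0 were 0.27 for the ubiquitin ligase component Fbxo30, 0.21 for the sperm tail gene Odf1 and 0.18 for the ubiquitin ligase gene Trip12. With the authors' values in place of the scanner files, Piezo2 lay at 0.01.

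**Figure D4:**
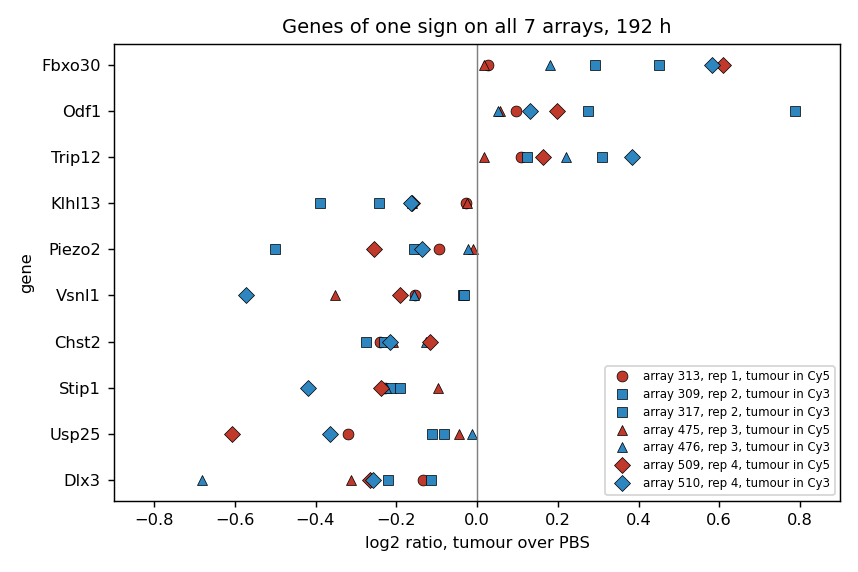
Log2 ratio of tumour over PBS on each of the 7 arrays for the 10 genes of one sign on all of them with the largest moderated statistic, with red for the tumour RNA in Cy5, blue for Cy3 and 1 marker shape for each biological replicate. The points of Chst2 lie within -0.27 to -0.12, and those of Odf1 spread up to 0.79.

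Genes of the midbrain's own transmitter systems did not pass the test in either direction. Of 14 tested genes of the dopaminergic neuron list, 7 lay above 0 and 7 below 0, with a median fitted ratio of 0.002, against 0.004 over all tested probes. Th had 0.64, 0.09, -0.14 and 0.44 in replicates 1 to 4, a fitted ratio of 0.26 (SE 0.12, adjusted p = 1.00 by limma, n = 4). Replicate 3 lay below 0 on both arrays and the other replicates above. Sncg, encoding gamma-synuclein, had 0.86, 0.09, -0.14 and -0.02, with replicate 1 far above the others. Its fitted ratio lay below 0 in the total RNA replicates alone and with the authors' values. It also lay below 0 without replicate 2, where the dye term enters the fit. Ddc had -0.40, 0.85, -0.02 and 0.05, and the dopamine neuron transcription factor genes Nr4a2 and Pitx3 had fitted ratios of 0.02 and -0.01. In bulk tissue, fewer cells of a type and less RNA per cell cannot be told apart.

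The serotonin transporter gene Slc6a4 had 0.25, 0.30, 0.16 and 0.05, a fitted ratio of 0.19 (SE 0.14, n = 4). Only 4 of its 7 arrays lay above 0, and those of replicate 2 gave -0.43 and 1.04. The serotonin receptor gene Htr7 had 0.22 (SE 0.13, n = 3). The other tested genes of this list had fitted ratios of 0.07 (Gata3), 0.008 (Htr5a) and -0.05 (Htr2c). Of 10 GABA signalling genes, 5 lay above 0 and 5 below 0, and of 11 glutamate signalling genes, 6 and 5. Gad1 had 0.28, -0.35, -0.20 and -0.23. The NMDA receptor subunit gene Grin2a had -0.08, -0.07, -0.32 and -0.14, one sign in all 4 replicates, with a fitted ratio of -0.15 (SE 0.09, n = 4).

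Of the 20 genes of synaptic vesicles and release, 15 lay below 0, with a median of -0.07. The medians of the replicates were -0.04, -0.20, 0.04 and -0.07, so replicate 2 was lowest and replicate 3 lay on the other side. Cplx2, a complexin that regulates vesicle fusion, had -0.64 in replicate 1, 0.37 in replicate 2 and -0.51 in replicate 4. Napb, an SNAP adaptor of the fusion machinery, had -0.31, 0.01, -0.10 and -0.15.

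Immune and stress lists held a few of the lower unadjusted p-values and no call. In all, 447 genes of the 34 lists were tested. None of them had an adjusted p under 0.05 and 14 (3.13%, beside 1.32% of all probes) had an unadjusted p under 0.05, 6 higher and 8 lower. For a gene with several probes the probe with the smallest p was used, and the lists were chosen with earlier results of these data known. These shares therefore do not measure whether the lists are richer in low p-values. The 6 were Atf3, Cebpd, Idh2, Ndufb4, Gabrb2 and Pcp2, and the 8 were Ifngr2, Irf9, Isg15, Id3, Nrarp, Tjp1, Gata1 and Gja10. Only Atf3, Cebpd, Ifngr2, Irf9 and Isg15 came from immune or stress lists.

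Of 32 interferon response genes, 15 were on the arrays, 12 had values in at least 3 replicates and 6 passed the filters and were tested. They split into 3 with a fitted ratio close to 0 and 3 below it. Irf9, part of the transcription factor complex downstream of type I interferon, had 0.05, -0.34, -0.44 and -2.02 (fitted -0.69, SE 0.27, n = 4). Replicate 4 alone set the size of the Irf9 ratio. It rested there on array 509, with the tumour RNA in Cy5, and without replicate 4 the fitted ratio was -0.24. The ubiquitin-like gene Isg15 had -0.48, 0.08, -0.12 and -0.58 (fitted -0.28), with replicate 2 above 0. Oasl2 and Ifi27, both interferon-induced, and the receptor gene Ifnar1 had fitted ratios of 0.02, 0.02 and 0.04. The median of the list was -0.13, with replicate medians of -0.19, 0.19, -0.08 and -0.48, which do not share a sign.

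In the list of cytokine, NF-kB and acute phase genes 12 of 18 lay above 0, with a median of 0.03. Cebpd, a transcription factor gene induced by inflammation and glucocorticoids, had 0.45, 0.24, 0.11 and 0.22, a fitted ratio of 0.25 (SE 0.11, n = 4). All 4 replicates of Cebpd and 6 of its 7 arrays lay above 0. Tgfb1 had 0.47, 0.36, -0.16 and 0.26. The acute phase gene Lcn2, secreted by reactive astrocytes, had -0.29, 0.84, 0.02 and 0.17. Of the 12 glucocorticoid response genes, 7 lay above 0, and Hsd11b1, which encodes the enzyme that regenerates active glucocorticoid, had a fitted ratio of -0.18 (SE 0.09, n = 4).

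Of 13 microglia and macrophage genes with values in at least 3 replicates, 6 were tested, and 4 of these lay above 0 and 2 below 0. The microglial receptor gene P2ry12 had 0.09, 0.02, 0.22 and -0.01, and the complement gene C1qb had 0.08, 0.05 and -0.0007 in replicates 1, 3 and 4. The mannose receptor gene Mrc1, a marker of perivascular macrophages, had 0.07, 0.27, 0.53 and 0.19 (fitted 0.27, SE 0.16, n = 4). Msr1, of the same list, went the other way, with -0.08, -0.03, -0.24 and -0.11 (fitted -0.12, SE 0.11, n = 4). Itgam had a fitted ratio of -0.09. Of 7 lymphocyte genes, 5 lay above 0 and 2 below 0. The B cell receptor component Cd79b had 0.20, 0.44, -0.04 and 0.78, with replicate 4 from array 509 alone. The T cell receptor component Cd3d had 0.36, 0.15, 0.23 and -0.06. Those below 0 were Cd79a, with 0.26, -0.32, -0.37 and 0.22 (fitted -0.05), and Gzma (fitted -0.02).

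Among markers of other cells that such tissue could hold, few epithelial, carcinoma and blood cell genes passed the filters. Of 12 epithelial and colon carcinoma genes on the arrays, 0 had a signal on all 7, 5 had values in at least 3 replicates and 2 were tested, Krt19 and Cldn7, with fitted ratios of -0.11 (SE 0.17, n = 3) and -0.06 (SE 0.17, n = 4). Without replicate 1 both lay above 0, Krt19 at 0.05 and Cldn7 at 0.08. Of 12 blood cell genes on the arrays, 0 had a signal on all 7 and 3 were tested. Among these, the erythroid factor gene Gata1 had -0.29, -0.48, 0.02 and -0.28, and 0.005 as its fitted ratio where the background was not subtracted, and S100a8, a neutrophil gene, had 0.09, 0.91, -0.22 and -0.01. Of 9 genes of the choroid plexus, ependyma and meninges, 5 lay above 0 and 4 below 0, and Dcn, a proteoglycan gene of the meninges, had 0.47, 0.36, 0.08 and -0.10. The fitted ratio of Dcn was 0.20, but -0.04 with 1 scan per array and -0.01 in the total RNA replicates alone. Without replicate 1, where the dye term enters, it was -0.006. Oligodendrocyte genes split into 4 above and 5 below 0, astrocyte genes into 5 and 5, and endothelial genes into 6 and 7.

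Of the 14 immediate early genes, 10 lay above 0. Atf3 led them, and Egr4, an activity-induced zinc finger gene, had 0.29, -0.02, 0.22 and 0.21. The replicate medians of this list were -0.21, 0.07, 0.18 and 0.03. Of 17 heat shock and chaperonin genes, 11 lay below 0, with a median of -0.03, and Hsph1, encoding an Hsp70 cofactor, had -0.01, -0.41, 0.04 and -0.21.

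Respiratory chain genes gave small ratios. Of 45 oxidative phosphorylation genes, each with a value in 4 replicates, 34 lay below 0 and 11 above, with a median of -0.03 and none called. The replicate medians were 0.03, -0.08, -0.08 and 0.004, so replicates 2 and 3 lay below 0 and replicates 1 and 4 above. Of the 45 genes, 7 had one sign in all 4 replicates, 4 below 0 and 3 above, beside 7.69% of all probes with 4 values. Cyc1, the cytochrome c1 of complex III, had 0.07, -0.34, -0.01 and -0.43 (fitted -0.18, SE 0.11, n = 4). Ndufb4, described above, lay furthest on the other side, at 0.31. Of 14 genes of the tricarboxylic acid cycle, 8 lay below 0, and Idh2 was the furthest above.

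**Figure D5:**
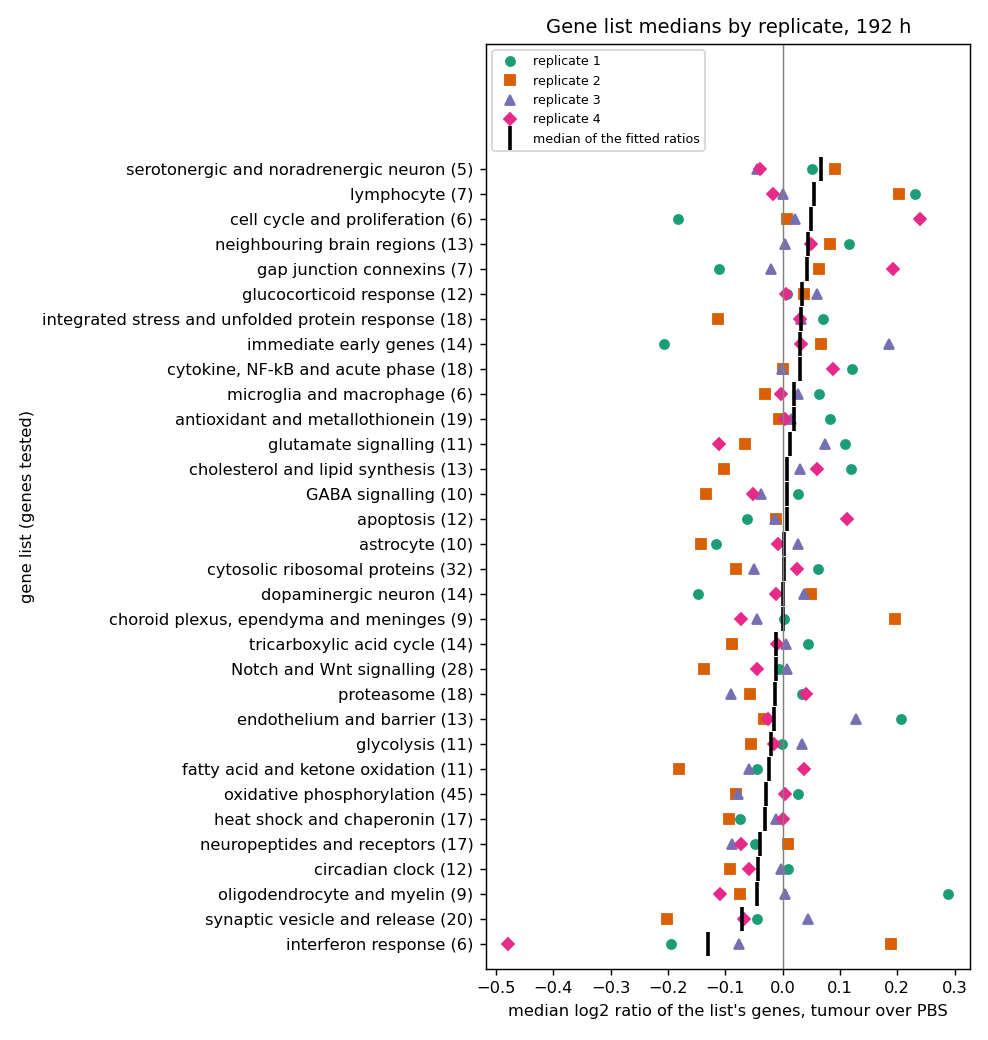
Median log2 ratio of tumour over PBS of the genes of each list with 5 or more tested genes, in each replicate (coloured points) and over the fitted ratios (black bars), with the number of genes in brackets. The fitted medians run from -0.13 for interferon response to 0.07 for serotonergic and noradrenergic neurons, and in 30 of the 32 lists the replicates lie on both sides of 0.

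The replicate medians had one sign in 2 of the 32 lists with 5 or more tested genes. The glucocorticoid response list had 0.01, 0.04, 0.06 and 0.01, and the list of neighbouring brain regions had 0.12, 0.08, 0.004 and 0.05. Neighbouring brain regions stands for markers of tissue next to the midbrain. Of its 13 tested genes, 8 lay above 0. Pcp2, a gene of cerebellar Purkinje cells, had 0.61, 0.08, 0.03 and 0.89 (fitted 0.40, SE 0.18, n = 4), and the cerebellar gene Cbln1 had 0.22, -0.25, 0.05 and 0.60. Pcp2 and Cbln1 were highest in replicates 4 and 1, as were the ratios of Th in replicates 1 and 4. Cbln3, of the same list, went the other way in these replicates, with -0.13, 0.43, 0.15 and -0.80 in replicates 1 to 4 (fitted -0.09). The part of neighbouring tissue in the other ratios was not tested. Without replicate 1, where the dye term enters, the fitted medians of the lists were -0.01 and -0.02, against 0.03 and 0.04 with it.

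Of 18 probes with a fitted ratio beyond 1 in either direction, 8 had a value in all 4 replicates and 0 had one sign in them. Gja10, a connexin gene, had -2.77 in replicate 1, -0.89 in replicate 3 and -3.47 in replicate 4, each from a single array with the tumour RNA in Cy5. Its fitted ratio was -2.06 (SE 0.45, n = 3), and no array with the tumour RNA in Cy3 gave a value. Tjp1, encoding the tight junction protein ZO-1, had -1.19 in replicate 1 and -2.93 in replicate 4 with the tumour RNA in Cy5, and 0.92 in replicate 2 with it in Cy3. Smaller ratios also rested on 1 orientation or 1 replicate. The myelin gene Pllp had -0.48, 0.10, 0.20 and -2.45, again lowest on array 509, and without replicate 4 its fitted ratio was -0.06. Id3, a transcriptional regulator of astrocytes and endothelium, had -0.56, -0.86 and -0.25 in replicates 1, 3 and 4, and its arrays of replicate 4 gave -1.16 with the tumour RNA in Cy5 and 0.66 with it in Cy3. Gabrb2, a GABA-A receptor subunit gene, had a fitted ratio of 0.55 and a plain mean of 0.11 over 3 replicates (-0.27, 0.21 and 0.40). The difference between both values comes from the dye term, since replicate 2 gave no value. For Gja10 the tumour and the dye cannot be told apart.

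The ratios at 192 h were set against those of 5 biological replicates at 18 h after the same injections. The fit called 0 of 5697 probes (0%) for 192 h minus 18 h, and 0.998 was the lowest adjusted p. An unadjusted p under 0.05 was reached by 156 probes (2.74%). Usp25 had a fitted ratio of -0.23 at 192 h and 0.13 at 18 h, where 4 of 4 replicates with a value lay above 0 (0.14, 0.11, 0.17 and 0.19). The difference of Usp25 was -0.37 (SE 0.15, adjusted p = 0.998 by limma). Cish had -0.30 at 192 h and 0.28 at 18 h, where 3 replicates gave 0.31, 0.34 and -0.002. The difference of Cish was -0.58 (SE 0.18, adjusted p = 0.998 by limma). Slc35b4 had 0.30 at 192 h and -0.12 at 18 h, where its replicates lay on both sides of 0 (-0.52, 0.27, 0.14, -0.28 and -0.19). Usp25, Cish and Slc35b4 had been chosen by their values at 192 h.

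Other genes had like ratios at both times. Atf3 had 0.33 at 192 h and 0.33 at 18 h (0.56, 0.33 and 0.12 in 3 replicates), with a difference of -0.002 (SE 0.18). Ncmap had 0.56 at 192 h and 0.47 at 18 h, with 0.41, 0.67 and 0.33 in 3 replicates at 18 h. Chst2 had -0.21 at 192 h and -0.17 at 18 h. None of these differences passed the test, which does not show that the ratios were alike.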

How the data were processed

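Midbrain RNA was hybridised to in-house printed 2-colour oligonucleotide arrays, per the labels. Per the file headers, the deposited scanner output holds an intensity for each spot in channels A and B after subtraction of the local background, with 3 scans per array. The deposited series matrix gives a score per spot, a log ratio whose base (2 or e) is unknown. Its column medians at 192 h lie between -0.012 and 0.004, and it served as an alternative only. The scanning software was not given in the sources used here. The members, gene lists and tests were chosen with earlier results of these data known.

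From the deposited intensities, log2 ratios of channel B over A were normalized by loess on each scan in R 4.3.3 with limma 3.58.1 (span 0.3, 4 iterations). Scans, spots of one accession, and arrays of one replicate were averaged after turning signs to tumour over PBS. Probes were named through the accession (4855), the gene number (4057) or the platform's symbol (85) using a reference table, and 11 with several symbols were left unnamed. List symbols were matched through the same table's synonyms. The dimmest 33.3% of probes were left out. Limma was fitted over 9 replicates (4 at 192 h, 5 at 18 h), with the time means and the dye as terms. There were 6 residual degrees of freedom and 4.72 prior ones, and p-values were adjusted by Benjamini-Hochberg, with a threshold of 0.05. The dye term was 0 for replicates with both orientations, also where a probe had a value in only 1 of them. The fit was also run on simulated data, and no result reported here rests on that run. Named genes were the 12 highest and 12 lowest moderated statistics among genes of one sign in all 4 replicates, the 10 largest of one sign on all 7 arrays, 2 of each list and tissue check genes; other genes, such as Isg15, Oasl2, Ifi27, Ifnar1, Nr4a2, Pitx3, P2ry12, C1qb, Rbm33, Nat8 and Chst13, were chosen after their values were seen. Precision is limited by the number of replicates. Alternatives covered normalization, background, scans, dim probes, dye term, samples, RNA type, the authors' values, a block and left-out replicates.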

Additional observations from a re-analysis of the deposited data

How the results depend on the processing

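Under all 17 alternatives 0 probes were called at 192 h, and under the 16 that included 18 h 0 were called for 192 h minus 18 h. The count at an unadjusted p under 0.05, 75 as reported, was 129 with median centring in place of loess, 132 with array 272 added (40 higher and 92 lower) and 146 with the authors' values (74 and 72). It was 82 with 1 scan per array (55 and 27) and 61 where both orientations were needed (39 and 22). The lowest adjusted p was 0.118 without replicate 3. Leaving out each 192 h replicate in turn gave 68 to 138. The replicate numbers are shared with 18 h. Same-numbered deviations from the time means correlated at 0.183, 0.298, -0.152 and 0.094 for numbers 1 to 4, so not every pair passed 0.1; same-numbered samples also share the type of RNA and, for 1 and 2, the dye orientation. With the replicate block the count was 99, with 0 called at 192 h and a lowest adjusted p of 0.124. Of 93 named genes, 75 had one sign under every alternative that gave a value. The signs of the other 18 turned under 1 to 4 of them, such as Mpv17l, which was -0.22 with array 272 added. Depth cannot be given for arrays: dim spots have no ratio, and 3 arrays or fewer lie behind some of the largest values. Causes of these shifts were not tested.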

Other observations

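Spots with a signal in only 1 channel gave no ratio and enter no comparison above. On both arrays of replicate 3, 6 of 9008 probes had a signal in the tumour channel alone and 0 in the PBS channel alone, while 226 had it in Cy3 alone on both arrays and 0 in Cy5 alone. On both arrays of replicate 4 these numbers were 1 and 5, against 278 in Cy3 alone and 2 in Cy5 alone. None of the probes had a signal in the tumour channel alone, or in the PBS channel alone, on all 4 of these arrays.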
